A study of Saccharomyces cerevisiae with 72 samples.

Results

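The genes described here are the tRNA genes of budding yeast that had a probe on a splicing microarray. A gene was taken as a member where the RefSeq gene table of assembly R64 gives its type as tRNA, and no measured value was used to choose it. Of the 299 tRNA genes in that table, 64 had a probe, 1 probe each. They are 40 of 275 nuclear tRNA genes and all 24 mitochondrial ones, out of 1457 named probes for 982 genes. The other named probes read protein-coding genes and a few pseudogenes, so no other gene of the mitochondrial genome and no rRNA, snRNA or snoRNA was there to set beside the tRNAs.

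The array series asked how splicing responds to amino acid starvation and to ethanol, and what the loss of RNA decay factors does. Total RNA was compared on 72 two-colour arrays, which make up 36 pairs with the dyes exchanged, in 11 comparisons. In 3 courses cells were treated with 50 mM 3-amino-1,2,4-triazole (3-AT), an inhibitor of histidine synthesis, for 2, 4, 6, 10, 15 and 20 min. The first compared treated with untreated wild type, the second treated with untreated cells of a gcn2 deletion, and the third both strains under treatment, gcn2 deletion over wild type. Another course compared the temperature-sensitive splicing mutant prp8-1 with wild type at 37 C over the same times. Its label gives YPD for the mutant and names no medium for the wild type. The last followed wild type in 10% ethanol against untreated wild type at 5, 10, 15, 20, 25 and 30 min. The 6 other comparisons set a deletion of xrn1, upf1, ski2, rtt103, rrp6 or rai1 against wild type, both in minimal medium, with 1 pair of arrays per strain. The wild type carries the same label in all 6, and the labels do not say whether it was the same extract. The labels give no strain background and no clone number.

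Transfer RNAs carry amino acids to the ribosome. RNA polymerase III makes the nuclear ones as precursors, whose ends RNase P, tRNase Z and exonucleases trim, and some of which carry an intron that is removed by a tRNA endonuclease and ligase and not by the spliceosome. Misprocessed or undermodified tRNAs are destroyed from the 3′ end by the TRAMP complex and the nuclear exosome, to which Rrp6 belongs, and from the 5′ end by Rat1 and Xrn1. Mitochondrial tRNAs are cut out of long transcripts that a separate, phage-like RNA polymerase makes, often together with rRNA or protein-coding sequence. Uncharged tRNA is also the signal that activates the kinase Gcn2, which is known for its part in the response to 3-AT.

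A value here is a deposited log ratio taken as log2, averaged over the repeated spots of a probe and over both arrays of a pair. In the courses, "higher" and "lower" mean that the mean of the 6 time points differed from 0 in limma at an adjusted p under 0.05 over all 1457 named probes, with a slope for time in the fit. The time points of 1 course are the only replicates. These p-values therefore measure the mean against the scatter of the time points about a straight line, which may be technical. A steady trend over time does not count in that scatter. In the deletion strains there is no replicate and no test. There, "past the fold" means a mean of at least 0.5 in size with the same sign on both arrays. Counts at an unadjusted p, or under an alternative setting, are given for tRNA probes only. The shares of all probes printed near them belong to the main setting. Array medians lay between -0.036 and 0.035, so a tRNA value is relative to the centre of the array. Which part of a transcript each probe reads, and whether the cDNA came from mature tRNA, its precursors or a longer transcript, is not stated. Near-identical copies of a tRNA family may share the signal of 1 probe. Of the 40 nuclear probes, 30 carry only a systematic identifier with no amino acid in the tables used here. The 10 with a name are CDC65 (glutamine), HSX1 and TRR4 (arginine), SUF10 (proline), SUF3 (glycine), SUP11 (tyrosine), SUP16 and SUP61 (serine), TGA1 (alanine) and TRT2 (threonine). Mitochondrial names give the amino acid letter and the anticodon.

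The deleted genes set the direction of the ratios. GCN2 stood at -4.35 in the gcn2 deletion, RRP6 at -4.01, XRN1 at -3.23, RAI1 at -2.37, SKI2 at -2.50 and UPF1 (listed as NAM7) at -3.50 in their own strains, and RTT103 had no probe. No deleted gene checks the direction in ethanol, in prp8-1, in the rtt103 deletion or in 3-AT against untreated cells. There, treated or mutant RNA over its control is likely and rests on the labels. The tRNA probes repeated unevenly across exchanged dyes. Over the 36 pairs the correlation between both arrays had a median of 0.76 over the nuclear probes (0.24 to 0.95), 0.39 over the mitochondrial ones (-0.82 to 0.86) and 0.72 over all named probes. The median SD between repeated spots was 0.091 for nuclear, 0.18 for mitochondrial and 0.10 for all probes.

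**Figure D1:**
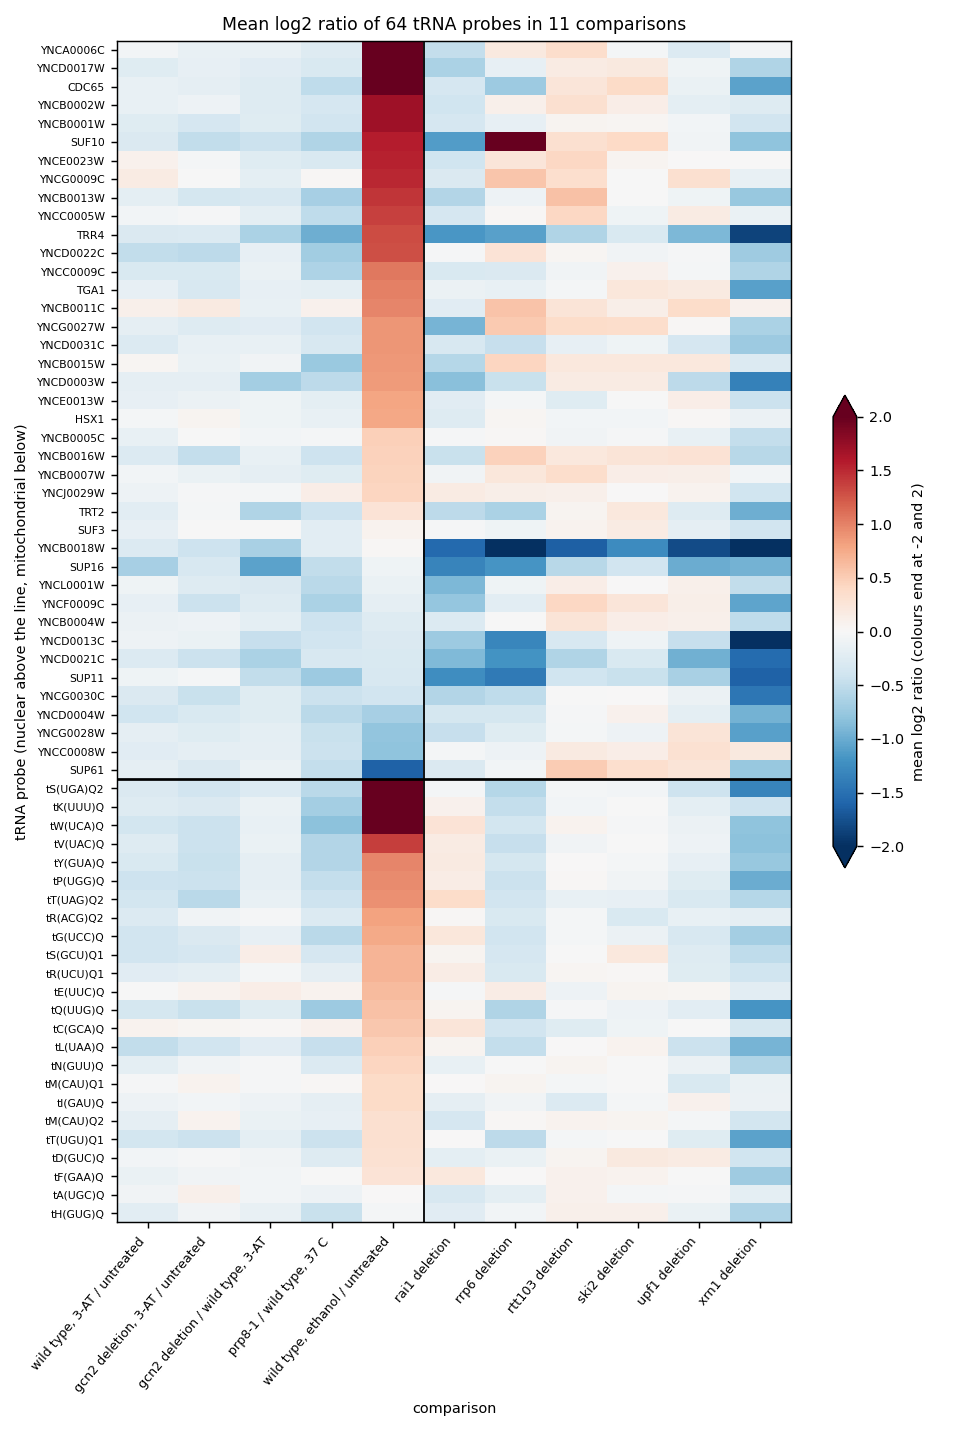
Mean log2 ratio of each of the 64 tRNA probes (rows, nuclear above the line and mitochondrial below, ordered by ethanol) in the 11 comparisons (columns), blue below 0 and red above. The ethanol column is mostly red, the other courses mostly blue, and YNCB0018W is blue in all 6 deletion strains.

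Most tRNA probes rose in ethanol. In 10% ethanol 26 of 40 nuclear tRNA probes rose and 11 fell, against 41.9% of all 1457 probes that rose and 39.6% that fell. Of the 24 mitochondrial probes 22 rose and none fell by limma, and 0 fell at an unadjusted p under 0.05 either. The other 2, tA(UGC)Q for alanine and tH(GUG)Q for histidine, had means of 0.015 and -0.044. The median over the nuclear set was 0.70 ± 0.16 (SD over 6 time points) and over the mitochondrial set 0.61 ± 0.15, while the median over all probes lay near 0 at every time. Among the 10 highest of all 1457 probes, 3 were nuclear and 3 mitochondrial tRNAs. The highest of a probe's 11 means was the one in ethanol for 26 nuclear and 22 mitochondrial probes. The same count over all probes was not made. Means of all probes had an SD of 0.63 in ethanol and 0.31 in wild type under 3-AT. A comparison with a wider spread can collect more extremes of any probe.

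YNCA0006C, a nuclear tRNA gene, was the highest of all probes. Its log2 ratios at 5 to 30 min in ethanol were 2.32, 2.89, 2.44, 3.01, 2.42 and 2.31, with a mean of 2.56 ± 0.10 (SE, n = 6 time points, limma adjusted p = 1.23e-07). All 6 values exceeded 2, with the top at 20 min. Among nuclear tRNAs YNCD0017W followed, between 1.65 and 2.77 with a median of 2.04 and a mean of 2.08 ± 0.12 (SE, n = 6 time points, limma adjusted p = 7.13e-07). CDC65, a glutamine tRNA, read 2.15, 2.18, 1.85, 1.51, 2.06 and 2.36, with a mean of 2.02 ± 0.10 (SE, n = 6 time points, limma adjusted p = 3.32e-07). Unlike YNCD0017W, it had its lowest value at 20 min.

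SUP61, a serine tRNA known as a single-copy essential gene, went the other way. Its ratios were -2.40, -1.90, -2.01, -0.75, -1.65 and -0.97 from 5 to 30 min, with a mean of -1.61 ± 0.13 (SE, n = 6 time points, limma adjusted p = 5.37e-06), and all 6 lay below 0. It was the lowest tRNA of the course and rank 33 from the bottom of all probes. YNCC0008W fell by 0.81 on the log2 scale (adjusted p = 2.59e-06) and YNCG0028W by 0.79 (adjusted p = 1.56e-05), both below 0 at every time. The nuclear probes thus spread from -1.61 to 2.56, with an SD among probes of 0.92 against 0.63 over all named probes. Values for the other named nuclear tRNAs were 1.57 for SUF10, 1.30 for TRR4, 1.01 for TGA1, 0.78 for HSX1, 0.27 for TRT2 and -0.33 for SUP11. SUF3 had a mean of 0.069 and did not pass the test (limma adjusted p = 0.281). SUP16, the other serine tRNA, had a mean of -0.080 and did not pass the test (adjusted p = 0.299).

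In the mitochondrial set 3 probes stood far above the rest in ethanol. tS(UGA)Q2, a serine tRNA, read 1.88, 2.53, 2.74, 2.70, 2.38 and 1.96 from 5 to 30 min, with a mean of 2.36 ± 0.12 (SE, n = 6 time points, limma adjusted p = 3.92e-07). tK(UUU)Q, the lysine tRNA, ran from 1.78 to 2.71 with a median of 2.37 and a mean of 2.33 ± 0.12 (SE, n = 6 time points, limma adjusted p = 3.29e-07). For tW(UCA)Q, the tryptophan tRNA, the range was 1.72 to 2.75, the median 2.30 and the mean 2.24 ± 0.12 (SE, n = 6 time points, limma adjusted p = 5.34e-07). These were ranks 2, 3 and 5 of all probes, and at each time point all 3 lay above the next mitochondrial probe, tV(UAC)Q for valine, whose mean was 1.39. At the low end of the probes that rose stood tT(UGU)Q1 at 0.32 ± 0.053 (adjusted p = 0.000468), tD(GUC)Q at 0.31 ± 0.053 (adjusted p = 0.000631) and tF(GAA)Q at 0.27 ± 0.047 (adjusted p = 0.000593), each by limma over 6 time points. The mitochondrial histidine tRNA, tH(GUG)Q, lay between -0.19 and 0.16 and did not pass the test (limma adjusted p = 0.502). By limma its mean was 0.37 with treated RNA in Cy5 alone (adjusted p = 0.00859) and -0.46 with it in Cy3 alone (adjusted p = 2.79e-05), so the means by dye had opposite signs. Of the 3 smallest rises, tD(GUC)Q stood at 0.0073 (adjusted p = 0.921) and tT(UGU)Q1 at 0.10 (adjusted p = 0.123) by limma with Cy3 alone. tF(GAA)Q had 0.075 (adjusted p = 0.372) with Cy5 alone and 0.048 (adjusted p = 0.355) on blocks 1 to 8 of the slide, by the same test.

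Both sets were high from the first ethanol time point. The median over nuclear tRNAs reached 0.52 at 5 min, peaked with 0.96 at 20 min and ended with 0.57 at 30 min. Over the mitochondrial tRNAs it went from 0.45 at 5 min through 0.78 at 20 min to 0.42 at 30 min. Above 0 at all 6 times were 25 nuclear and 22 mitochondrial probes, a share that 38.9% of all probes reached.

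**Figure D2:**
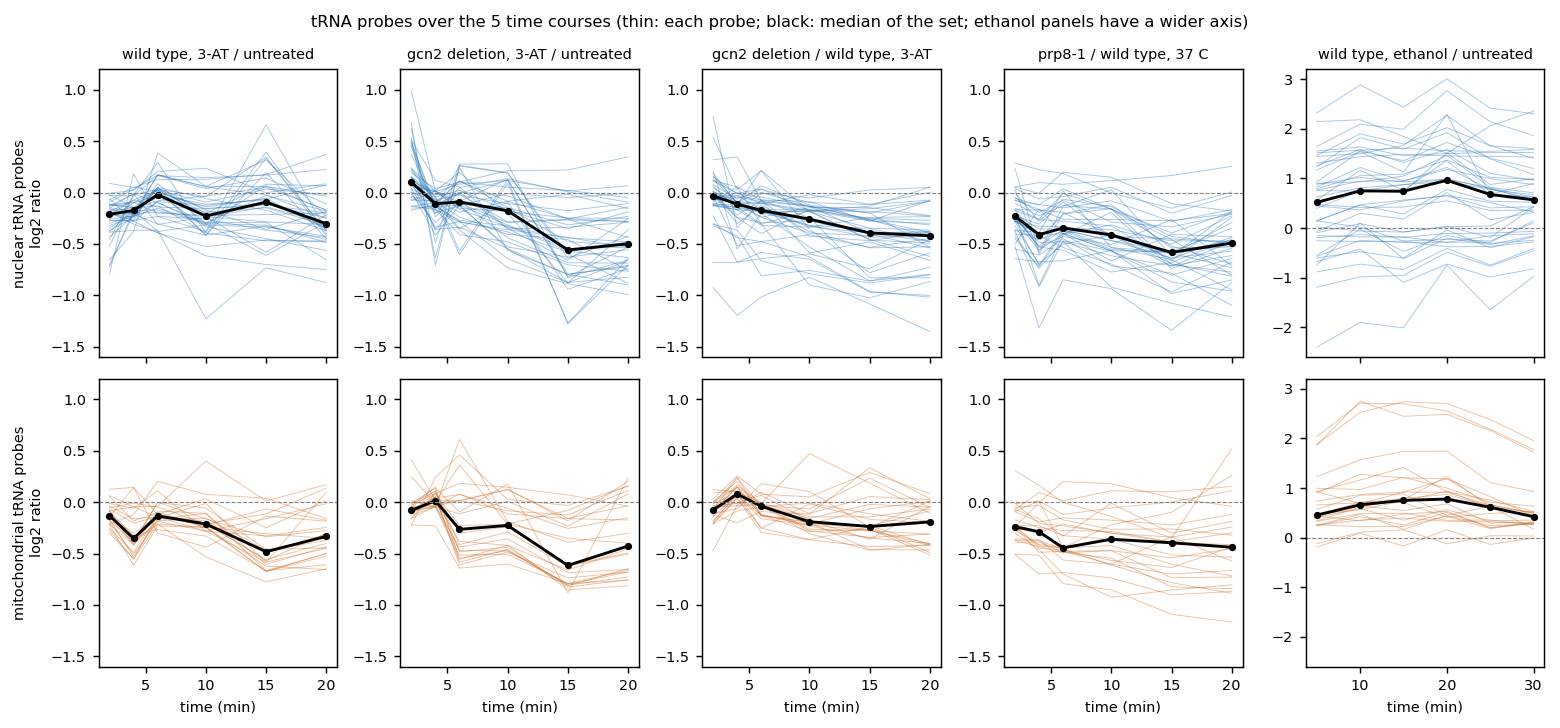
Log2 ratio of each tRNA probe (thin lines) and the median of its set (black) against time in min, for nuclear (top) and mitochondrial (bottom) probes in the 5 courses. The ethanol panels have a wider axis; their medians stay above 0 at every time, while the medians of prp8-1 stay below 0.

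The order of the genes on the mitochondrial genome, taken from the RefSeq table, was set beside the values. Of the 3 high probes in ethanol, tW(UCA)Q lies between the small rRNA gene and COX1, tS(UGA)Q2 between OLI1 and VAR1, and tK(UUU)Q in a run of tRNA genes. The neighbours of tK(UUU)Q in that run, tQ(UUG)Q and tR(UCU)Q1, had means of 0.59 and 0.68 against its 2.33. Likewise tH(GUG)Q, at -0.044, lies between tC(GCA)Q at 0.55 and tL(UAA)Q at 0.48. These are differences between probes, and levels were not compared.

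**Figure D3:**
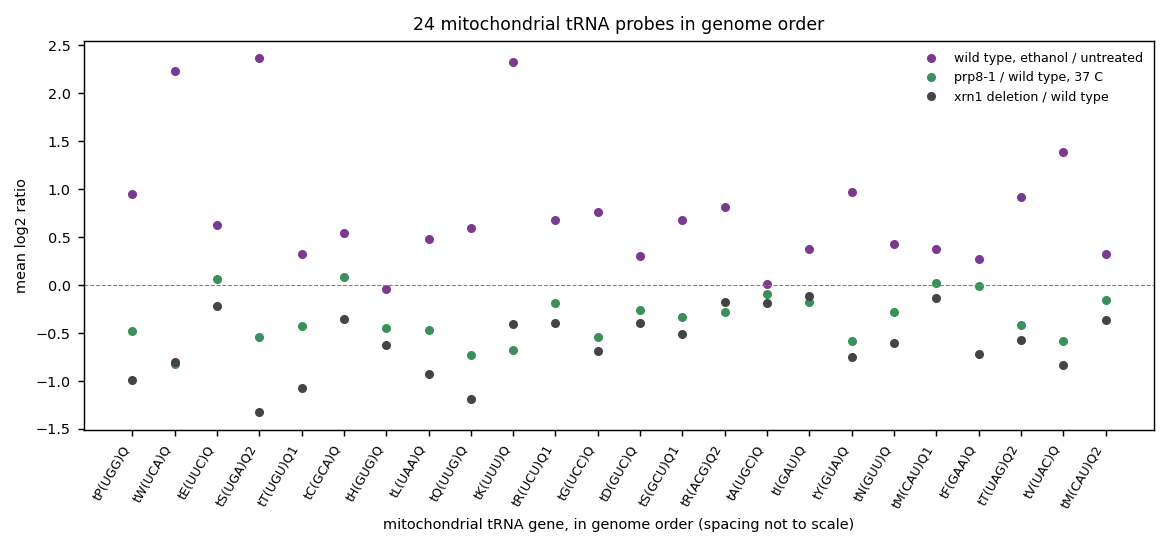
Mean log2 ratio of the 24 mitochondrial tRNA probes in genome order (not to scale) in ethanol, in prp8-1 at 37 C and in the xrn1 deletion. In ethanol tW(UCA)Q, tS(UGA)Q2 and tK(UUU)Q stand above 2, while in the xrn1 deletion all 24 lie below 0.

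In prp8-1, which carries a defect in a core protein of the spliceosome, most tRNA probes read below wild type at 37 C. Of 40 nuclear probes 35 fell and 1 rose, against 39.2% and 39.9% of all 1457 probes. Of 24 mitochondrial probes 19 fell and none rose by limma, nor did any rise at an unadjusted p under 0.05. The set medians were -0.41 ± 0.12 (SD over 6 time points) for nuclear and -0.36 ± 0.083 for mitochondrial tRNAs. Below 0 at all 6 times were 32 nuclear and 19 mitochondrial probes, where 34.9% of all probes were. The labels name a medium for the mutant alone, and the part of the medium was not tested.

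TRR4, an arginine tRNA, was the lowest. Its ratios at 2 to 20 min were -0.52, -1.32, -0.85, -0.94, -1.34 and -0.87, with a mean of -0.97 ± 0.11 (SE, n = 6 time points, limma adjusted p = 0.00015). YNCB0015W ran from -1.21 to -0.24 with a median of -0.70, and fell by 0.74 on average (limma adjusted p = 7.39e-06). SUP11, a tyrosine tRNA, lay between -0.98 and -0.56 and fell by 0.73 (limma adjusted p = 1.06e-05). All 3 were below 0 at every time point. Closest to 0 among those that fell were HSX1 at -0.14 ± 0.034 (adjusted p = 0.0065) and YNCE0013W at -0.19 ± 0.041 (adjusted p = 0.00407), each by limma over 6 time points. By limma HSX1 did not pass with Cy3 alone (adjusted p = 0.381), nor YNCE0013W with Cy5 alone (adjusted p = 0.113) or on blocks 1 to 8 (adjusted p = 0.349). The single nuclear probe that rose, YNCJ0029W, lay between 0.056 and 0.26 with a mean of 0.13 ± 0.028 (SE, n = 6 time points, limma adjusted p = 0.00408). That direction turned to -0.0098 with mutant RNA in Cy3 alone and to -0.036 on blocks 9 to 16 of the slide.

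Among mitochondrial probes tW(UCA)Q was lowest in prp8-1, at -0.51, -0.52, -0.79, -0.85, -1.09 and -1.17 from 2 to 20 min and -0.82 ± 0.038 (SE, n = 6 time points, limma adjusted p = 2.06e-06) on average. tQ(UUG)Q fell by 0.73 (limma adjusted p = 2.49e-06), tK(UUU)Q by 0.67 (adjusted p = 5.89e-05) and tH(GUG)Q by 0.45 (adjusted p = 5.94e-05). The smallest falls that passed were tR(UCU)Q1 at -0.18, tI(GAU)Q at -0.18 and tM(CAU)Q2 at -0.16. With mutant RNA in Cy5 alone, the means of tH(GUG)Q, tI(GAU)Q and tM(CAU)Q2 turned to 0.082, 0.0055 and 0.13. tR(UCU)Q1 had -0.00064 with Cy3 alone (limma adjusted p = 0.988), and tI(GAU)Q did not pass on blocks 1 to 8 (limma adjusted p = 0.185).

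A dye difference moved with the nuclear probes on the slides of this course. Their median was higher on the array with the mutant in Cy5 than on its partner by 0.32 to 0.53 at the 6 time points, where all probes together differed by at most 0.038. The mean of both arrays weighs each dye equally. With Cy5 alone the nuclear median was -0.17 and 22 nuclear probes fell, and with Cy3 alone the median was -0.63. The share of all probes that fell with Cy5 alone is not given. At 2 min the Cy5 median was 0.034 and the Cy3 median -0.46, and at the 5 later times both were below 0. Between exchanged dyes the mitochondrial probes of this course correlated at a median of 0.14 (-0.058 to 0.39). The order of single mitochondrial tRNAs in prp8-1 was thus poorly repeated between arrays of a pair.

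Ethanol and prp8-1 share no RNA. Of the 26 nuclear probes that rose in ethanol, 22 fell in prp8-1, which is 84.6% of the 26 and 62.9% of the 35 that fell in prp8-1. Of all 40 nuclear probes 87.5% fell in prp8-1 and 65.0% rose in ethanol, so both shares are near those of the whole set. All 11 nuclear probes that fell in ethanol also fell in prp8-1. Of the 22 mitochondrial probes that rose in ethanol 18 fell in prp8-1, which is 81.8% of the 22 and 94.7% of the 19. Here too the shares over all 24 probes were close, at 79.2% and 91.7%. Over all 1457 probes 611 rose in ethanol and 571 fell in prp8-1, and 216 did both, which is 35.4% of the 611 and 37.8% of the 571. Across the 24 mitochondrial probes the means of both courses had a Pearson correlation of -0.61 and a Spearman correlation of -0.61, and across the 40 nuclear ones 0.069 and 0.095. These are descriptions across probes, which share slides and are not independent replicates.

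Treatment of wild type with 3-AT gave small values for the tRNAs, mostly below 0. Of 40 nuclear probes 23 fell and 2 rose, where 31.4% of all 1457 probes fell and 32.8% rose. Of 24 mitochondrial probes 17 fell, and none rose by limma or at an unadjusted p under 0.05. The set medians were -0.17 ± 0.10 (SD over 6 time points) for nuclear and -0.27 ± 0.14 for mitochondrial tRNAs, and no tRNA was among the 20 highest or the 20 lowest of all probes. Below 0 at all 6 times were 17 nuclear and 16 mitochondrial probes, where 22.5% of all probes were.

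SUP16, a serine tRNA, had the lowest mean. Its ratios were -0.39, -0.37, -0.37, -1.23, -0.73 and -0.88 at 2 to 20 min, all below 0, with a mean of -0.66 ± 0.096 (SE, n = 6 time points, limma adjusted p = 0.000718). YNCD0022C ranged from -0.75 to -0.19 with a median of -0.50 and fell by 0.49 (limma adjusted p = 3.81e-05). YNCD0004W stayed between -0.53 and -0.27 and fell by 0.40 (limma adjusted p = 7.36e-05). YNCB0002W had the smallest of the 23 falls, -0.15 ± 0.046 (adjusted p = 0.0212). The 2 probes that rose were YNCG0009C at 0.16 ± 0.030 (adjusted p = 0.00257), above 0 at 6 of 6 times, and YNCB0011C at 0.11 ± 0.032 (adjusted p = 0.0204), above 0 at 4 of 6, each by limma. YNCB0011C no longer passed without the 10, 15 or 20 min pair (adjusted p from 0.0525 to 0.0785 by limma). It was lost too with Cy5 alone (adjusted p = 0.753), on blocks 1 to 8 (adjusted p = 0.255) and without the slope (adjusted p = 0.0974), and YNCB0002W with Cy3 alone (adjusted p = 0.332), all by limma.

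Among mitochondrial tRNAs in treated wild type, tL(UAA)Q for leucine was lowest, between -0.78 and -0.21, with a mean of -0.50 ± 0.056 (SE, n = 6 time points, limma adjusted p = 0.00022). tP(UGG)Q for proline fell by 0.42 (limma adjusted p = 0.00111) and tS(GCU)Q1 for serine by 0.38 (adjusted p = 0.000176). tN(GUU)Q for asparagine and tF(GAA)Q for phenylalanine had the smallest falls that passed, with means of -0.19 and -0.14. The histidine tRNA of mitochondria, tH(GUG)Q, read -0.070, -0.20, -0.14, -0.28, -0.33 and -0.25 and fell by 0.21 (limma adjusted p = 0.00101). With Cy5 alone it had -0.16 and did not pass (limma adjusted p = 0.0542). Nor did tN(GUU)Q with Cy5 alone (adjusted p = 0.617) and tF(GAA)Q with Cy3 alone (adjusted p = 0.143), and neither passed on blocks 1 to 8 (adjusted p = 0.215 and 0.231), all by limma. Histidine is the amino acid whose synthesis 3-AT blocks, and the median of the 24 mitochondrial means was -0.26. Nuclear tRNAs for histidine could not be told from the identifiers.

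The gcn2 deletion under 3-AT had similar counts and a wider spread over time. Of its 40 nuclear probes 24 fell and 1 rose, where 27.6% of all 1457 probes fell and 29.4% rose. Of 24 mitochondrial probes 13 fell, and none rose by limma or at an unadjusted p under 0.05. The set medians over the course were -0.22 ± 0.26 (SD over 6 time points) for nuclear and -0.27 ± 0.23 for mitochondrial tRNAs. By time, nuclear probes had medians of 0.10 at 2 min, -0.11 at 4 min, -0.090 at 6 min, -0.18 at 10 min, -0.56 at 15 min and -0.50 at 20 min. Below 0 were 11 of 40 nuclear probes at 2 min and 38 of 40 at 20 min. The count of nuclear probes that fell was 15 without the 15 min pair or without the 20 min pair, and 9 when the fit had no slope for time.

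YNCD0022C was lowest in this strain, from -0.99 to -0.038 with a median of -0.55 and a mean of -0.52 ± 0.048 (SE, n = 6 time points, limma adjusted p = 1.5e-05). SUF10, the proline tRNA, read 0.040, -0.34, -0.28, -0.64, -0.87 and -0.82 and fell by 0.49 (limma adjusted p = 4.19e-05). YNCB0016W ran from -0.90 to 0.10 and fell by 0.47 (limma adjusted p = 3.27e-05). For the last 2, the value at 2 min was above 0 and the values from 4 min on were below. YNCB0011C rose, at 0.19 ± 0.038 (adjusted p = 0.00204) by limma and above 0 at 6 of 6 times. The smallest falls that passed were YNCB0007W at -0.14 and YNCE0013W at -0.12. By limma YNCB0007W no longer passed without the 15 or the 20 min pair, and YNCE0013W without the 10, 15 or 20 min pair (adjusted p from 0.0569 to 0.111). In the mitochondrial set tT(UAG)Q2 fell by 0.54 (limma adjusted p = 1.77e-05), tQ(UUG)Q by 0.45 (adjusted p = 0.000301) and tY(GUA)Q by 0.45 (adjusted p = 0.000139). At the other end of those that fell were tK(UUU)Q at -0.29, tG(UCC)Q at -0.29 and tR(UCU)Q1 at -0.20. tH(GUG)Q had a mean of -0.077 and did not pass the test (limma adjusted p = 0.11). Without the 6 min pair it passed, at -0.11 (adjusted p = 0.0449). It passed as well with Cy3 alone, at -0.22 (adjusted p = 0.000632), and with the median over spots, at -0.12 (adjusted p = 0.0172). Without a slope for time YNCB0007W, YNCE0013W, tK(UUU)Q and tR(UCU)Q1 did not pass (limma adjusted p from 0.0587 to 0.13), nor did YNCE0013W with Cy5 alone (adjusted p = 0.0728).

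The treated gcn2 deletion set directly against treated wild type had every nuclear tRNA mean below 0. No array compared the untreated strains with each other. The direct ratio therefore holds any difference between the strains without treatment together with any difference in their responses. The part of each was not tested. Of 40 nuclear probes 31 were lower in the gcn2 deletion and none higher, where 24.3% of all 1457 probes were lower and 26.8% higher. At an unadjusted p under 0.05, 34 were lower and 0 higher, and the share of all probes at that threshold is not given. Of 24 mitochondrial probes 13 were lower and 1 higher. Set medians were -0.23 ± 0.15 (SD over 6 time points) for nuclear tRNAs and, for mitochondrial ones, -0.11 ± 0.12. By time it went from -0.031 at 2 min to -0.42 at 20 min over the nuclear set, and at 10 min all 40 nuclear probes were below 0. Among the 20 lowest of all probes 6 were nuclear tRNAs. The count of lower mitochondrial probes was 7 without the 15 min pair, 6 without the 20 min pair and 5 without a slope for time.

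SUP16 stood lowest here as well. Its ratios of gcn2 deletion over wild type were -0.92, -1.20, -1.01, -0.82, -1.08 and -1.35 at 2 to 20 min, with a mean of -1.07 ± 0.057 (SE, n = 6 time points, limma adjusted p = 4.8e-06). Every one was at or below -0.82, which put the probe at rank 6 from the bottom of all 1457. YNCD0003W stood at -0.23 at 2 min, with a median over the course of -0.66 and a mean of -0.68 ± 0.049 (SE, n = 6 time points, limma adjusted p = 1.57e-05). YNCB0018W lay between -0.86 and -0.32 and was lower by a mean of -0.65 (limma adjusted p = 5.68e-05). TRR4 for arginine had a mean of -0.63, TRT2 for threonine -0.61 and YNCD0021C -0.63. The smallest differences that passed were YNCA0006C at -0.14, YNCC0009C at -0.14 and SUP61 at -0.13. Without the 20 min pair SUP61 had a mean of -0.047 and did not pass (limma adjusted p = 0.292). It had -0.0088 with Cy3 alone (adjusted p = 0.889) and did not pass without the slope (adjusted p = 0.251). Nor did YNCA0006C with Cy3 alone (adjusted p = 0.0582) or YNCC0009C without the slope (adjusted p = 0.0595), all by limma.

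The mitochondrial means in the direct comparison lay nearer to 0 at the low end. tS(UGA)Q2 lay between -0.43 and 0.037 with a mean of -0.28 ± 0.045 (SE, n = 6 time points, limma adjusted p = 0.00125). tQ(UUG)Q had a mean of -0.24, tL(UAA)Q of -0.22 and tH(GUG)Q of -0.14 (limma adjusted p = 0.0114). With gcn2 RNA in Cy5 alone tH(GUG)Q had -0.0022 (limma adjusted p = 0.97), and on blocks 9 to 16 of the slide it did not pass (adjusted p = 0.114). tQ(UUG)Q did not pass with Cy3 alone (limma adjusted p = 0.0802). The smallest that passed were tM(CAU)Q2 at -0.13 and tV(UAC)Q at -0.13. By limma tM(CAU)Q2 no longer passed without the 2, 6, 15 or 20 min pair (adjusted p from 0.0687 to 0.0974), nor tV(UAC)Q without the 6, 10, 15 or 20 min pair (adjusted p from 0.0695 to 0.282). Neither passed without the slope, with either dye alone or on blocks 1 to 8, nor tM(CAU)Q2 with the median over spots (limma adjusted p from 0.0525 to 0.78). tS(GCU)Q1 was the only mitochondrial probe called higher in the gcn2 deletion, at 0.13 ± 0.044 (adjusted p = 0.0335) by limma, and on blocks 9 to 16 of the slide its mean was -0.034 (adjusted p = 0.615). Without the 4, 6 or 15 min pair it did not pass (limma adjusted p from 0.0517 to 0.0982), nor without the slope, with the median over spots or with Cy3 alone (adjusted p from 0.0566 to 0.427).

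**Figure D4:**
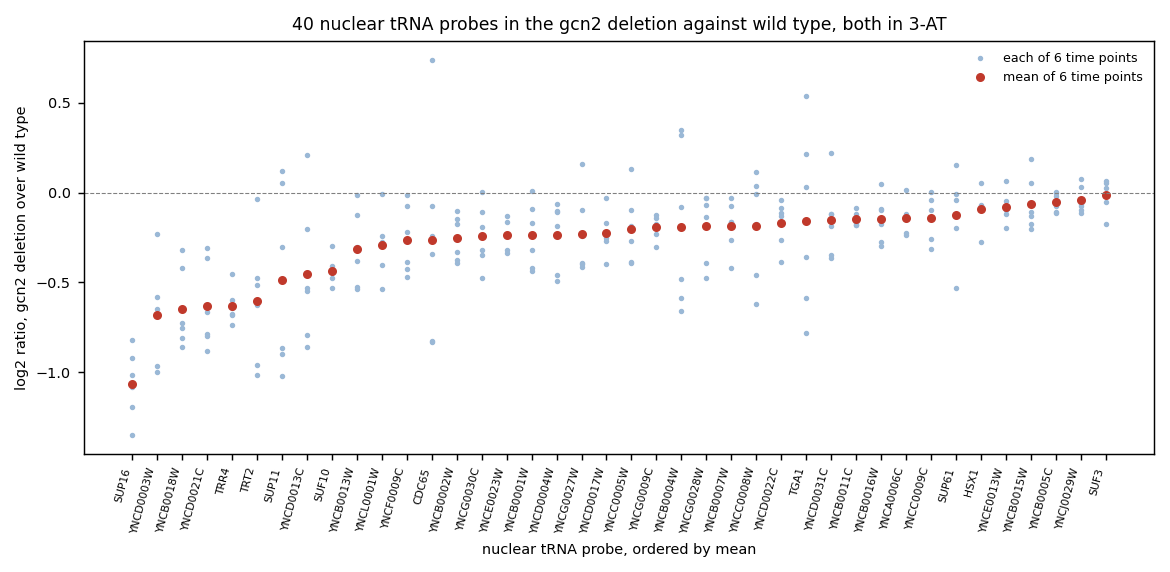
Log2 ratio of the treated gcn2 deletion over treated wild type for the 40 nuclear tRNA probes, at each of 6 time points (small points) and as their mean (large points), ordered by mean. All 40 means lie below 0, with SUP16 lowest at -1.07.

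The difference between the mean responses of both strains over the course was tested by itself. The response of wild type minus that of the gcn2 deletion was higher for 4 of 40 nuclear probes and lower for none, where 8.99% of all 1457 probes were higher and 7.76% lower. No mitochondrial probe was called in either direction by limma, and 16.7% of all probes were called. At an unadjusted p under 0.05, 7 nuclear probes were higher and 3 lower, and 0 mitochondrial probes were higher and 2 lower. The share of all probes at that threshold is not given. The nuclear means of this difference had a median of 0.024, with 21 above 0 and 19 below. Differences of opposite sign at early and late times can cancel in such means, and a difference in slope was not tested. At 2, 4, 6, 10, 15 and 20 min the nuclear median in wild type was -0.21, -0.17, -0.021, -0.23, -0.093 and -0.30. In the gcn2 deletion it was 0.10, -0.11, -0.090, -0.18, -0.56 and -0.50. YNCB0016W had a wild-type mean of -0.27 and a gcn2 mean of -0.47, a difference of 0.21 ± 0.060 (adjusted p = 0.0342) by limma. For YNCL0001W the means were -0.080 and -0.26, for YNCG0009C 0.16 and -0.012, and for YNCG0030C -0.29 and -0.44. The first 3 were higher in wild type at 5 of 6 times and YNCG0030C at 4 of 6. The count of 4 in 40 is near the share over all probes. None of the 4 passed when the fit had no slope for time, 1 passed with time point as a block, and leaving out 1 pair moved the number of nuclear probes called higher between 0 and 10. The treated RNAs of the direct comparison carry the same labels as those of both courses, which do not say whether the extracts were the same. Its values therefore stand beside them and are not counted as separate evidence. For SUP16 the wild-type response was -0.66, the gcn2 response -0.32 and the direct ratio -1.07. The difference between its responses did not pass (limma adjusted p = 0.108).

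In the deletion strains the nuclear tRNAs were most often low in the xrn1 and rai1 strains. Xrn1 is the main cytoplasmic 5′ to 3′ exonuclease and Rai1 the partner of the nuclear exonuclease Rat1. In the xrn1 deletion 23 of 40 nuclear probes were past the fold below 0 and none above, where 17.4% of all 1457 probes were below and 21.1% above. 1 further nuclear probe passed in size with opposite signs on its arrays. Of 24 mitochondrial probes 14 were past the fold below 0 and none above, and all 24 means were below 0. The set medians were -0.62 for nuclear and -0.59 for mitochondrial tRNAs, from 1 pair of arrays. Here 22 nuclear and 17 mitochondrial probes had their lowest value of the 11 comparisons. The same count over all probes, whose SD in this strain was 0.70, was not made.

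YNCB0018W read -2.52 and -3.24 on the arrays with xrn1 RNA in Cy5 and in Cy3, a mean of -2.88, and YNCD0013C read -1.79 and -2.30, a mean of -2.05. TRR4 stood at -1.85, SUP11 at -1.61 and CDC65 at -1.07. At the top were YNCC0008W at 0.20 and YNCB0011C at 0.093. In the mitochondrial set tS(UGA)Q2 read -1.50 and -1.15, a mean of -1.33, and tQ(UUG)Q had a mean of -1.19. tI(GAU)Q at -0.11 and tM(CAU)Q1 at -0.13 were nearest to 0, and tH(GUG)Q had -0.62. Across the 24 mitochondrial probes the xrn1 and prp8-1 means had a Pearson correlation of 0.67 and a Spearman correlation of 0.73, and across the 40 nuclear ones 0.33 and 0.41, again as a description of probes on shared slides. The mitochondrial probes themselves repeated poorly between dyes in prp8-1, at a median correlation of 0.14.

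In the rai1 deletion 16 of 40 nuclear probes were past the fold below 0 and none above, where 6.11% of all probes were below and 5.49% above. The nuclear median was -0.40. None of the 24 mitochondrial probes was past the fold either way, and their median was 0.057. YNCB0018W at -1.55 and SUP16 at -1.33 were lowest, and both arrays of SUP16 were below -1, at -1.11 and -1.54. SUP11 at -1.24, TRR4 at -1.17 and SUF10 at -1.11 followed. YNCJ0029W at 0.16 and SUF3 at -0.023 were highest. The mitochondrial probes lay between -0.33 for tM(CAU)Q2 and 0.36 for tT(UAG)Q2, with tA(UGC)Q at -0.32, tH(GUG)Q at -0.23 and tW(UCA)Q at 0.27. Of the 40 nuclear probes 11 had their lowest value of all comparisons in this strain, again without a count over all probes.

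The rrp6 deletion, which lacks the nuclear exosome subunit that degrades misprocessed tRNA from the 3′ end, had nuclear tRNAs at both extremes. Past the fold were 4 of 40 nuclear probes above 0 and 9 below, where 4.94% of all probes were above and 7.48% below. SUF10, the proline tRNA, read 3.38 and 2.73 with rrp6 RNA in Cy5 and in Cy3, a mean of 3.05. It was the third highest of all 1457 probes, and the next nuclear tRNA, YNCB0011C, stood at 0.56. YNCB0018W was lowest, at -2.09 and -2.79, a mean of -2.44. SUP11 stood at -1.42, YNCD0013C at -1.30, SUP16 at -1.17 and TRR4 at -1.08. The nuclear median was -0.097 and the SD among nuclear probes 0.81, against 0.49 over all named probes.

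Of the mitochondrial probes in the rrp6 strain 3 were past the fold below 0 and none above, with a median of -0.35. tQ(UUG)Q at -0.61 and tS(UGA)Q2 at -0.57 were lowest, and tE(UUC)Q at 0.15 and tM(CAU)Q1 at 0.047 highest. tH(GUG)Q had -0.062.

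SUF10 can be followed across the series. Its means were 3.05 in the rrp6 deletion and 1.57 in ethanol. They were -1.11 in the rai1 deletion, -0.80 in the xrn1 deletion, -0.60 in prp8-1, 0.40 in the ski2 deletion, 0.31 in the rtt103 deletion and -0.065 in the upf1 deletion. Under 3-AT they were -0.29 in wild type, -0.49 in the gcn2 deletion and -0.43 in the direct comparison. Its mean was above 1 in the rrp6 deletion and in ethanol and below -1 in the rai1 deletion.

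Few tRNAs were past the fold in the other 3 strains. Rtt103 acts with Rat1 at the end of transcription, Ski2 is the helicase of the cytoplasmic exosome pathway, and Upf1 is the helicase of nonsense-mediated decay. In the rtt103 deletion 2 of 40 nuclear probes were above and 4 below, where 2.4% of all probes were above and 1.99% below. YNCB0013W at 0.58 and SUP61 at 0.51 were highest, and TRR4 at -0.61 and YNCB0018W at -1.64 lowest. In the ski2 deletion only YNCB0018W was past the fold, at -1.26, where 2.81% of all probes were below and 1.99% above. The others at the ends of that strain were SUP11 at -0.44, CDC65 at 0.38 and SUF10 at 0.40. In the upf1 deletion 6 of 40 nuclear probes were below and none above, where 7.14% of all probes were below and 10.1% above. YNCB0018W at -1.79 and SUP16 at -0.99 were lowest, and YNCB0011C at 0.36 and YNCG0009C at 0.32 highest.

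No mitochondrial tRNA was past the fold in these 3 strains. In the rtt103 strain they lay between -0.27 for tI(GAU)Q, with tC(GCA)Q at -0.24, and 0.11 for tH(GUG)Q, with tA(UGC)Q at 0.089. In the ski2 strain the lowest were tR(ACG)Q2 at -0.30 and tT(UAG)Q2 at -0.16 and the highest tS(GCU)Q1 and tD(GUC)Q, both at 0.20, with tH(GUG)Q at 0.11. In the upf1 strain the lowest were tL(UAA)Q and tS(UGA)Q2, both at -0.42, the highest tD(GUC)Q at 0.17 and tI(GAU)Q at 0.093, and tH(GUG)Q had -0.13. Across exchanged dyes the mitochondrial probes correlated at -0.82 in the rtt103 strain, -0.70 in the ski2 strain, -0.45 in the upf1 strain, -0.079 in the rrp6 strain, -0.040 in the rai1 strain and 0.39 in the xrn1 strain. The nuclear probes correlated between 0.59 and 0.95 in the same 6 strains. In the 5 strains with a correlation below 0 the order of single mitochondrial tRNAs on one array was not repeated on the other.

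YNCB0018W was past the fold below 0 in all 6 deletion strains, as were 7 of 1457 probes (0.48%). Its means were -2.88 for xrn1, -2.44 for rrp6, -1.79 for upf1, -1.64 for rtt103, -1.55 for rai1 and -1.26 for ski2. On all 12 arrays of these strains it lay below -1. In ethanol its mean was 0.025 and did not pass (limma adjusted p = 0.754), and in the treated gcn2 deletion against treated wild type it was -0.65. Below 0 in all 6 strains, at any size, were 7 nuclear tRNAs and 1 mitochondrial one, where 12.4% of all probes were. The nuclear ones were SUP11, SUP16, TRR4, YNCB0018W, YNCD0013C, YNCD0021C and YNCD0031C, and the mitochondrial one was tS(UGA)Q2. If the strains were set against 1 wild-type extract, a high value in that extract would lower a probe in all 6, which was not tested.

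**Figure D5:**
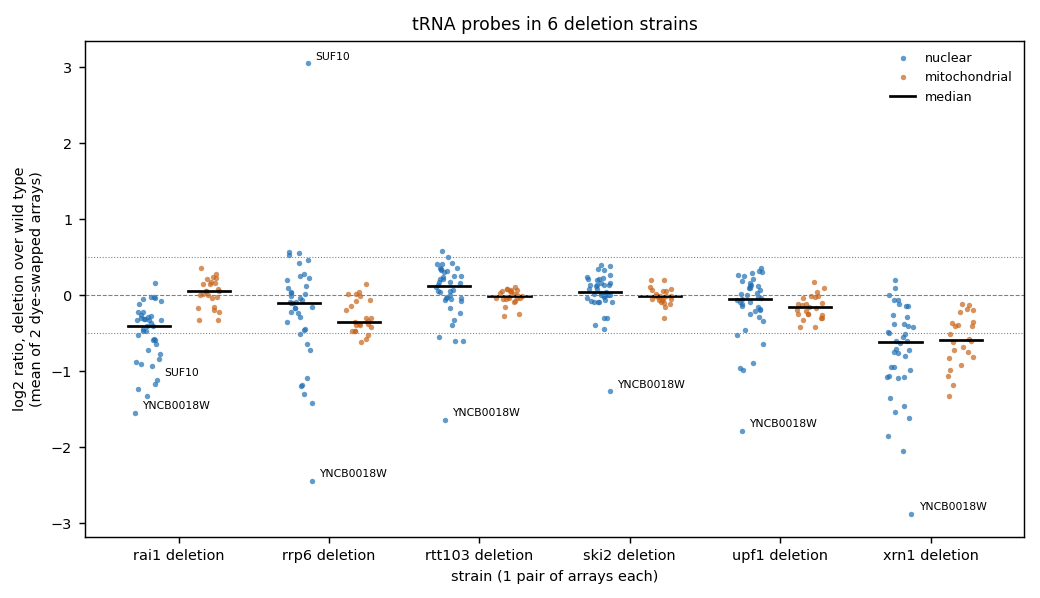
Log2 ratio of deletion strain over wild type for each nuclear and mitochondrial tRNA probe, as the mean of 2 dye-swapped arrays, with the median of each set and dotted lines at the fold of 0.5. YNCB0018W is the lowest nuclear probe in each of the 6 strains, and SUF10 stands at 3.05 in the rrp6 strain.

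The dye difference seen in prp8-1 was present in the deletion strains too. The nuclear median was higher with the mutant in Cy5 than in Cy3 by 0.38 to 0.47 in each of the 6 strains. In the 3 courses with 3-AT, which were printed on other slides, that gap had a median of -0.00023. In ethanol it was 0.36 at 10 min and lay between -0.29 and -0.13 at all other times. At 10 min the correlation between dyes over all probes was 0.58, the lowest of the ethanol course. In the rai1 strain 10 nuclear probes were past the fold below 0 by Cy5 alone and 26 by Cy3 alone. In the ski2 strain 7 nuclear probes were past the fold above 0 by Cy5 alone and 5 below by Cy3 alone. For these counts by either dye alone, no share of all probes is given. The nuclear median was 0.33 by Cy5 and -0.10 by Cy3 in the rtt103 strain, 0.28 and -0.14 in the ski2 strain, 0.19 and -0.26 in the upf1 strain and 0.081 and -0.29 in the rrp6 strain. In these 4 strains its sign thus differed between the arrays, while in the xrn1 and rai1 strains both were below 0.

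Protein-coding genes of tRNA biology were read from gene lists, counting genes with 1 probe. Of the 26 listed genes of RNA polymerase III and its factors 7 had 1 probe, and 3 with several probes were left out of the counts. In ethanol 4 of them fell and none rose, in prp8-1 4 rose and 1 fell, in treated wild type 3 rose and 3 fell, and in the treated gcn2 deletion 4 rose and 1 fell. Over all 1457 probes the shares that rose and fell were 41.9% and 39.6% in ethanol, 39.9% and 39.2% in prp8-1, 32.8% and 31.4% in treated wild type and 29.4% and 27.6% in the treated gcn2 deletion, and the counts in these lists of few genes are read against them. SPT15, the TATA-binding protein, had means of -0.65 in ethanol (limma adjusted p = 1.07e-05) and -0.52 in treated wild type (adjusted p = 7.31e-05). RPC19, a subunit shared by polymerases I and III, had 1.08 in prp8-1 (adjusted p = 0.000119).

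Of the 28 genes listed for processing of tRNA ends and splicing 16 had 1 probe, and 3 with several probes were left out. The list includes the LSM genes, whose part in these counts was not set apart. In ethanol 11 rose and 4 fell, in prp8-1 8 rose and 3 fell, in treated wild type 8 rose and 5 fell, and in the treated gcn2 deletion 7 rose and 6 fell. The falls in treated wild type, 5 of 16, match the 31.4% of all probes. POP4, a protein of RNase P, had 0.95 in treated wild type (limma adjusted p = 1.69e-05) and LHP1, the La protein that binds the ends of precursors, 0.98 in prp8-1 (adjusted p = 6.31e-07) and -0.32 in ethanol (adjusted p = 0.000406). TRL1, the tRNA ligase, had 0.25 in ethanol (adjusted p = 0.000415). In the xrn1 deletion 8 of the 16 were past the fold above 0 and none below, where 21.1% of all probes were above and 17.4% below, with LSM8, of the nuclear Lsm ring, at 1.68.

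Of the 13 genes for surveillance and decay 9 were measured. In treated wild type 8 rose and 1 fell, where 32.8% and 31.4% of all probes did, led by AIR1, an RNA-binding subunit of TRAMP, at 1.30 (limma adjusted p = 1.47e-05). In the treated gcn2 deletion 6 rose and 2 fell, and AIR1 had 0.73 (adjusted p = 1.08e-06). In prp8-1 6 rose and 2 fell, with MTR4, the TRAMP helicase, at -1.42 (adjusted p = 1.94e-05). In ethanol 3 rose and 5 fell. Of 11 export and import genes 6 had 1 probe, and 1 with several probes was left out. Of the 6, 5 fell and none rose in ethanol, where 39.6% of all probes fell. The lowest there was GSP1, the yeast Ran, at -1.47 (adjusted p = 1.75e-07). Of 49 modification genes 6 had 1 probe, and 2 with several probes were left out. Of the 6, 4 fell and none rose in ethanol. PUS7, a pseudouridine synthase, was lowest there at -1.49 (adjusted p = 1.44e-07). Of 9 listed genes of mitochondrial gene expression 2 were measured, TUF1 and SUV3. TUF1, the mitochondrial translation elongation factor, had -0.92 in ethanol (adjusted p = 2.6e-07), where SUV3 was not called. SUV3, the helicase of the mitochondrial degradosome, had 0.86 in the xrn1 deletion, where TUF1 was not past the fold. No aminoacyl-tRNA synthetase was measured.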

How the data were processed

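The deposited values are log ratios per spot, taken as log2 ratios. The sources used here give neither the base nor how the authors corrected, normalized and filtered them. RNA was extracted with acid phenol and labelled during cDNA synthesis, per the labels. The 3-AT courses lie in a table of 6144 spots (4 per probe) and the rest in one of 9216 (6 per probe). Probes were named through the platform annotation, 1457 with 1 gene symbol, none with several and 79 with none, and symbols updated by Entrez identifier to the RefSeq R64 table. Of the tRNA probe values, 38 of 2304 and 13 of 2304 lacked a spot and none lacked all.

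Spots were averaged (numpy 2.4.6, pandas 2.3.3), then dye-swapped arrays, since they share RNA. The courses were tested with limma 3.58.1 in R 4.3.3, each on its 6 pairs with centred time, with Benjamini-Hochberg adjustment over 1457 probes. The script was tested on simulated data. The members, gene lists and tests were chosen with earlier results of these data known. Named are the 3 highest and 3 lowest called probes of each set in a course, the 2 highest and 2 lowest in a deletion strain, called differences and histidine tRNAs. Others are named because they recur across comparisons, chosen after their values were seen. Parts of the rule on nuclear tRNAs for histidine and tryptophan and on introns could not be applied, since 30 identifiers carry no amino acid. RRS1, a ribosome assembly gene, was dropped from the synthetase list. No sequence was used, and RefSeq coordinates served only to order the mitochondrial genes. Alternatives were the slope, each dye alone, the median over spots, array centring, probes with all spots, unnamed probes, a fold of 1, leaving out each pair, a block for time and, added after seeing the data, either part of the slide.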

Additional observations from a re-analysis of the deposited data

Results flagged for a closer look

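In prp8-1 at 37 C, tH(GUG)Q read -0.24 at 2 min, and the other 5 time points lay between -0.54 and -0.45. The gap to its neighbours was wide for a group of 6 samples, and it was the only such value among 74 groups examined, where chance gives about 1 in 20.

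By a test of the difference between mean responses to 3-AT, 4 of 40 nuclear tRNAs were higher in wild type than in the gcn2 deletion. That is near the 8.99% of all 1457 probes that were. With time point as a block 1 of them passed, without a slope for time 0 did, and leaving out 1 pair gave 0 to 10 nuclear probes. Wild type minus gcn2 deletion was 0.21 for YNCB0016W (higher in wild type at 5 of 6 times, limma adjusted p = 0.0342), 0.18 for YNCL0001W (5 of 6, adjusted p = 0.035), 0.17 for YNCG0009C (5 of 6, adjusted p = 0.0288) and 0.15 for YNCG0030C (4 of 6, adjusted p = 0.0411). In the direct comparison of both treated strains, whose RNA carries the same labels, the same probes had means of -0.15, -0.29, -0.19 and -0.24. Those means also hold any difference between the untreated strains, which no array compared.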

How the results depend on the processing

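Of 750 recomputed counts and set medians 652 stayed within 1.5 times the count or within the spread of the median, and of 1333 recomputed values of named tRNAs 1224 kept direction and side of the threshold, while 87 no longer passed and 7 reversed. The cause of the changes was not tested. Centring the arrays, keeping probes with all spots and including unnamed probes moved none of them. Signal over background was not read. The number of arrays limits the precision. The counts that follow come without the share of all probes under the same setting.

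With the test RNA in Cy5 alone, nuclear probes that rose numbered 1 in treated wild type, 2 in the treated gcn2 deletion and 2 in prp8-1, where 22 fell and the nuclear median was -0.17. Mitochondrial probes called higher numbered 2 in prp8-1 and 2 in the direct gcn2 comparison. In ethanol 7 nuclear and 1 mitochondrial probe fell, and the nuclear median was 0.56. Set medians under an alternative are medians of the probe means. With both dyes that value was 0.78 for nuclear probes in ethanol. Past the fold were 10 nuclear probes below 0 in rai1, 8 above and 1 below in rtt103, 7 above in ski2, and 3 above and 3 below in upf1. Of mitochondrial probes 8 were below in rrp6, 1 above and 1 below in rtt103, 2 above in ski2, and 1 above and 3 below in upf1. Mitochondrial medians were 0.094 in rai1, -0.083 in rtt103, -0.062 in ski2 and -0.24 in upf1. In prp8-1 tI(GAU)Q reversed to 0.0055, tM(CAU)Q2 to 0.13 and tH(GUG)Q to 0.082, and in ethanol tH(GUG)Q to 0.37.

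With Cy3 alone 1 mitochondrial probe rose in the treated gcn2 deletion, and 8 were lower and 0 higher in the direct comparison. In prp8-1 the medians were -0.63 (nuclear) and -0.47 (mitochondrial), 2 mitochondrial probes rose, and YNCJ0029W reversed to -0.0098. In ethanol 1 mitochondrial probe fell and their median was 0.78. Past the fold were 26 nuclear probes below in rai1, 2 above in rrp6, 1 above in rtt103, 5 below in ski2, and 1 above and 11 below in upf1. Mitochondrial probes past it were 1 above and 3 below in rai1, 2 below in ski2 and 2 below in upf1.

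Without a slope for time 1 nuclear probe rose in treated wild type, 9 fell in the treated gcn2 deletion, 5 mitochondrial probes were lower and 0 higher in the direct comparison, and 0 nuclear differences between the strains' responses passed. With the median over spots 0 mitochondrial probes were higher in the direct comparison and 1 nuclear probe was above in rtt103. A fold of 1 left 5 nuclear probes below in rai1, 1 above in rrp6 with 0 mitochondrial below, 0 above and 1 below in rtt103, 1 below in upf1, and 11 nuclear and 3 mitochondrial below in xrn1.

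On slide blocks 1 to 8, an alternative chosen after seeing the data, 1 nuclear probe rose in treated wild type and 2 in prp8-1, 0 were above in rtt103, and the mitochondrial median was -0.064 in ski2. On blocks 9 to 16 that median was 0.041. There 0 mitochondrial probes were higher in the direct comparison, where tS(GCU)Q1 reversed to -0.034. In prp8-1 0 nuclear and 1 mitochondrial probe rose on these blocks, and YNCJ0029W reversed to -0.036.

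The wild-type and gcn2 courses share time points. Their deviations from the course means at the same time correlated between 0.087 and 0.56, and 1 of 6 time points, 20 min, matched itself best. What same-numbered samples share is the minutes of treatment, and since 1 correlation lay under 0.1 they were not treated as pairs. With time as a replicate block, 1 of 40 nuclear differences passed in place of 4. Leaving out 1 pair at a time gave these ranges. Nuclear probes that rose numbered 1 to 2 in treated wild type and 1 to 2 in prp8-1, and those that fell 15 to 28 in the treated gcn2 deletion. Mitochondrial probes that rose numbered 0 to 1 in the treated gcn2 deletion and in prp8-1. In the direct comparison 0 to 1 were higher and 6 to 13 lower. For the difference between responses, 0 to 10 nuclear probes were higher and 0 to 1 lower, and 0 to 1 mitochondrial probes were higher and 0 to 1 lower.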
